A study of Mus musculus with 6 samples.

Results

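The genes of blood vessel development and angiogenesis in the mouse lateral ventricular choroid plexus were compared between embryonic day 15 (E15) and adult. They were taken as every transcript cluster, the array's unit for 1 gene, whose biological process annotation in the deposited tables contained the word angiogenesis, vasculogenesis, blood vessel or vasculature. Clusters also annotated to cell adhesion or the cell cycle, or located in extracellular matrix, basement membrane or collagen, were left out. Of 75 clusters with a vessel term, 26 were left out in this way and 49 remained, of 3956 clusters in both tables. The words were applied to the annotation, with no measured value in the rule, though earlier results of these data were known when the rule was chosen. The word angiogenesis was found for 31 of the 49, blood vessel for 17, vasculogenesis for 8 and vasculature for 0, and some carried more than 1 of these words. For 46 of the 49 at least 1 vessel term rested on more than electronic annotation, and the other 3 were Arhgap24, Robo4 and Arhgap22.

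The 6 arrays, all of the Affymetrix mouse exon design, comprised 3 from E15 and 3 from the adult, each hybridised with a separate pool of plexuses from healthy Swiss Webster mice. The labels give 30 embryos of mixed sex for each E15 pool and 10 females, aged 10 weeks, for each adult pool. The study's own texts give other pool sizes, so the number of animals behind a value is uncertain. Its supplement also gives the adult age as over 3 months and the embryos as unsexed. Age and sex cannot be told apart. The series describes the RNA as epithelial, but whole plexuses were excised, with vessels and stroma, and the RNA was amplified in 2 rounds. The deposited columns hold 1 merged log2 value for each age and none for a single array, so no spread between pools, error or test could be computed here, and every difference below is a description. The 2 values of most clusters lie about 0, their sum having a median size of 0.10 among gene-level clusters, though some depart from this, such as Acvrl1 with a sum of -0.53. They give no level that could be set against another gene's.

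The stroma of the choroid plexus carries a dense bed of fenestrated capillaries under the epithelium, and this bed grows with the plexus in the embryo. Vessel growth is driven by vascular endothelial growth factor acting on its receptors on endothelium. Notch ligands and receptors divide sprouting cells into leading and following cells, angiopoietins and Tie receptors govern the maturation of vessels, and guidance receptors of the plexin and roundabout families steer sprouts. Many of these proteins are also used by other cells, among them epithelium and neurons.

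More of the vessel genes were enriched at E15 than in the adult. The gap junction gene Gja1 was 9.54-fold higher at E15, the chemokine receptor Cxcr4 3.97-fold and the semaphorin receptor Plxnd1 3.88-fold. In the adult the urocortin receptor Crhr2 was 8.99-fold higher, the growth factor Tgfa 5.70-fold, the phospholipase Plcd1 3.85-fold and the Notch target Hey2 3.77-fold. Of the 49 genes 18 were in the gene-level table, the authors' list of clusters past a corrected test and a 2-fold limit, and only these are called up-regulated or enriched here. That is 36.7% of the vessel genes, against 45.6% of all clusters in both tables. The other 31 were held only in the splicing index table, which lists clusters by a score for exon use and sets no minimum on the difference between ages.

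Of the 18 up-regulated genes, 12 had the higher value at E15 and 6 in the adult. The share higher at E15 was 66.7%, against 51.2% (925 of 1805) of all clusters in that table. The median difference of the 18, adult minus E15, was -1.21 on the log2 scale, and that of all clusters in the table was -1.01. All 18 differed at least 2-fold because the table required it, so the size of their differences is no separate result. The lean towards E15 depended on which vessel words were used: of the 8 genes annotated to angiogenesis itself, 4 were higher at each age. With each age centred on the median of its table, every difference rose by 0.85. Under this shift no adult gene of a table that requires 2-fold can drop below that limit and only E15 genes can, so the split is set in part by the centring: 10 of the 18 still differed at least 2-fold, 4 of them (40.0%) higher at E15, against 24.1% of the 1160 clusters of the table that still did so.

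**Figure D1:**
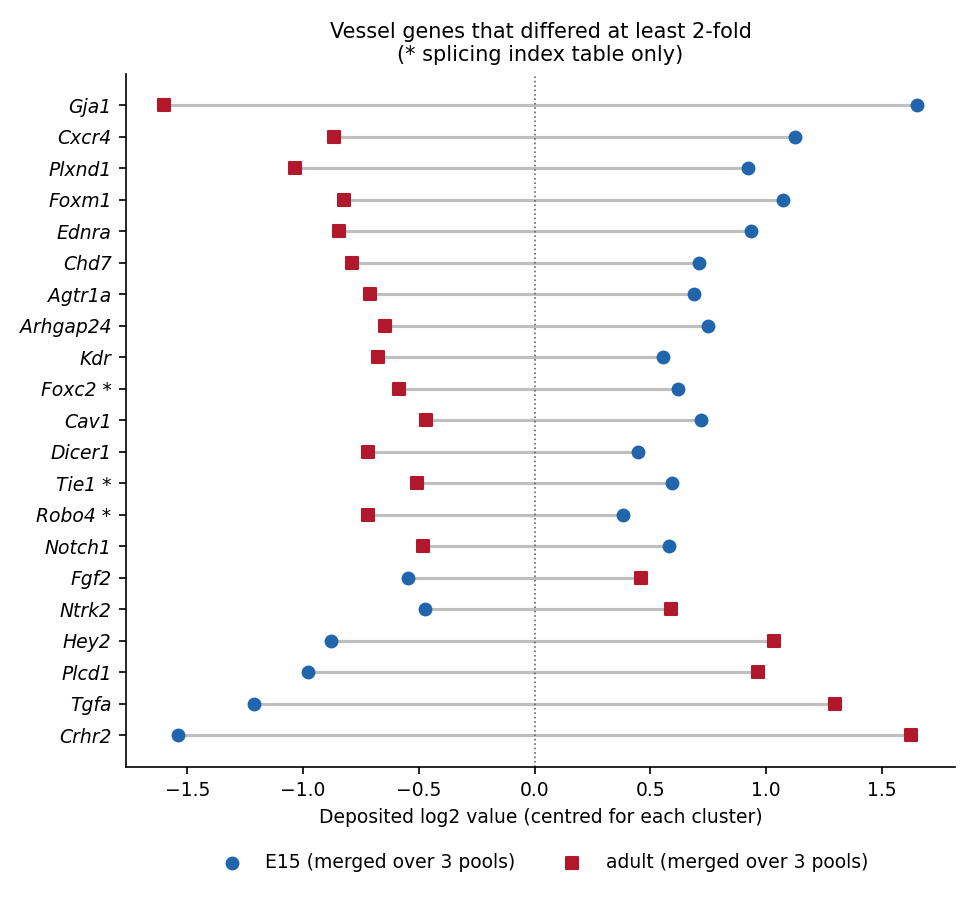
Merged log2 values of the 21 vessel genes that differed at least 2-fold, with E15 as circles and adult as squares, joined by a line for each gene; an asterisk marks the 3 genes held only in the splicing index table. The 15 genes from Gja1 to Notch1 had the higher value at E15 and the 6 from Fgf2 to Crhr2 in the adult.

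Of the 31 genes without a gene-level entry, 24 had the higher value at E15 and 7 in the adult. The share at E15 was 77.4%, against 56.5% of all 2151 clusters held only there. Their median difference was -0.44, against -0.13 over all those clusters. Most of these differences were small. A 2-fold difference was reached by 3 of the 31 (9.68%), against 3.11% of the 2151, and all 3 were higher at E15 in the deposited values. With the table centred on its median, 2 of the 31 reached 2-fold, Foxc2 at E15 and Fgf9 in the adult, and Tie1 and Robo4 no longer did. The 3 as deposited were Foxc2 at 2.31-fold, Tie1 at 2.15-fold and Robo4 at 2.14-fold. By the authors' stated steps, a cluster at 2-fold or more without a gene-level entry did not pass their expression filter or their corrected test. A further 10 lay between 1.5-fold and 2-fold and 18 under 1.5-fold. The genes nearest to 2-fold from above were Fgf2 at 2.01-fold, Ntrk2 at 2.09-fold and Notch1 at 2.09-fold, and from below Foxc1 at 1.95-fold, Ang at 1.92-fold and Akt1 at 1.89-fold.

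For the 3 genes with the largest fold towards each age, the 250 bases before the annotated start are shown to set the embryonic and the adult genes side by side. They come from RefSeq on GRCm38.p6, are written 5′ to 3′ on the gene's own strand, and lie at chr10:56377050-56377299 on the plus strand for Gja1, chr1:128592300-128592549 on the minus strand for Cxcr4, chr6:115995006-115995255 on the minus strand for Plxnd1, chr6:55133017-55133266 on the minus strand for Crhr2, chr6:86194972-86195221 on the plus strand for Tgfa and chr9:119093503-119093752 on the minus strand for Plcd1. Capitals mark matches, on either strand, to 6 short motifs: the hypoxia response element core ACGTG, the ETS core CCGGAA, the RBPJ core TGGGAA, the GC box core GGGCGG, the SOX core ACAATG and the TATA box TATAAA. The tables that hold the array values name no genome build, so these places are those of the RefSeq sequences and not of the array's probes.
Gja1: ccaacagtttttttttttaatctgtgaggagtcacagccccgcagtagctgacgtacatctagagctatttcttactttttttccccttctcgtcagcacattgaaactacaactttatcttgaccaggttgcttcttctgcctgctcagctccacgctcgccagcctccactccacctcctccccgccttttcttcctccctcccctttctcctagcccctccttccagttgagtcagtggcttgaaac
Cxcr4: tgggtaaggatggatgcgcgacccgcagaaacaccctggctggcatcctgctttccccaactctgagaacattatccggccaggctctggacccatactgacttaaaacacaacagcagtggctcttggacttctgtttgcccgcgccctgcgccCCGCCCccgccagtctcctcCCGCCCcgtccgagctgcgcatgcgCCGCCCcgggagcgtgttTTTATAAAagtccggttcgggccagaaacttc
Plxnd1: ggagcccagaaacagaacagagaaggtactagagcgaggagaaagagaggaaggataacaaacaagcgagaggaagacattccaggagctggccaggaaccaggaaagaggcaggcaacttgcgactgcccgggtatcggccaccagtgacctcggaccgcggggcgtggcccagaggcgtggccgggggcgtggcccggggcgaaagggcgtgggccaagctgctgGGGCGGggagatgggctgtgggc
Crhr2: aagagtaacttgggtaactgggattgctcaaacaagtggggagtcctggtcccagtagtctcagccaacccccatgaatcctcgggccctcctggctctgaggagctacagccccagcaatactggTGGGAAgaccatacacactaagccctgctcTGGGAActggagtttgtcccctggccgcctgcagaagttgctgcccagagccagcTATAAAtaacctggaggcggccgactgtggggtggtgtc
Tgfa: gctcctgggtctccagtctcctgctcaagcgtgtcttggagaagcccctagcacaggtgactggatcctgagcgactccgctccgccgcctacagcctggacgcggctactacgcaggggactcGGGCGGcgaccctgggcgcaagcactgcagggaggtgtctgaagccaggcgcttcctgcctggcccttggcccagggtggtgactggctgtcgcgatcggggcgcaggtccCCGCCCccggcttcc
Plcd1: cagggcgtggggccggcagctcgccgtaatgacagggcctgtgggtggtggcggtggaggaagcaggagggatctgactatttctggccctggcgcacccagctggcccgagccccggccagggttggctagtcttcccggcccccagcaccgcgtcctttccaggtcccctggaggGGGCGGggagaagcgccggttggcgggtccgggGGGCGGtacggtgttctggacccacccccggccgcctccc

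Among the E15 genes Gja1 had no match to any of the 6, Cxcr4 had 3 GC box cores and a TATA box read on both strands, and Plxnd1 had 1 GC box core. Among the adult genes Crhr2 had 2 RBPJ cores and 1 TATA box, and Tgfa and Plcd1 had 2 GC box cores each. No motif separated the 3 embryonic from the 3 adult genes. A window was found for 33 of the 49 vessel genes. A GC box core stood in 16 of the 33 (48.5%), against 42.7% of 17491 windows of protein-coding genes of the same length. An RBPJ core, the site of the DNA-binding partner of Notch, stood in 8 (24.2%), against 20.9%. The hypoxia response element core was found in 5 (15.2%, against 17.6%), the ETS core in 4 (12.1%, against 15.2%), the TATA box in 4 (12.1%, against 12.4%) and the SOX core in 3 (9.09%, against 9.57%). The median GC content of the vessel gene windows was 61.2%, against 55.2% of all windows. A match is a run of letters and not a bound site, and no binding was measured here.

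The receptors and ligands most closely tied to endothelium were all higher at E15, though only 1 of the 4 was in the gene-level table. Of all clusters 45.6% were in it, and 51.2% of those and 56.5% of the remainder were higher at E15. Kdr, the main signalling receptor for vascular endothelial growth factor on endothelium, had a merged log2 value of 0.56 at E15 and -0.68 in the adult, a 2.35-fold difference that became -0.38 on the log2 scale, under 2-fold, when the table was centred on its median. Tie1, an endothelial tyrosine kinase that works with the angiopoietin receptor, had 0.59 at E15 and -0.51 in the adult. Acvrl1, an endothelial receptor of the bone morphogenetic protein family, was 1.59-fold higher at E15, and Angpt2, a ligand of the angiopoietin receptor, 1.38-fold. Neither of these reached 2-fold. In the lists of the whole pathway, Nrp2, a co-receptor of the growth factor, was up-regulated 2.50-fold at E15 without carrying a vessel term, and Flt4, its lymphatic receptor, was 1.42-fold higher in a cluster shared with olfactory receptor genes. Vegfa, Flt1 and Tek had no entry in either table.

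Of 5 Notch genes 4 had the higher value at E15, and the exception, Hey2, had the largest difference of the 5. Notch1, the receptor, was up-regulated at E15 by 2.09-fold, with values of 0.58 at E15 and -0.48 in the adult. Hey2, a repressor that Notch signalling switches on, was up-regulated in the adult by 3.77-fold, from -0.88 at E15 to 1.04. Dll4, the ligand carried by leading cells of a sprout, was 1.86-fold higher at E15, below the 2-fold limit. Notch4, an endothelial receptor, was 1.32-fold higher at E15 in a cluster shared with butyrophilin-like genes, and Mib1, the ligase that activates Notch ligands, differed by 1.11-fold, a difference whose sign turned when the table was centred on its median. The difference of Notch1 became -0.21 under that centring. Of 16 Notch pathway genes listed, 9 had an entry, 3 of them a gene-level entry (2 up-regulated at E15 and 1 in the adult), and 8 of the 9 had the higher value at E15. The shares over all clusters were 45.6% for a gene-level entry, 51.2% of those higher at E15 and 56.5% of the remainder. Among those without a vessel term, the ligand Jag1 was up-regulated 3.28-fold at E15, and Nrarp, Heyl, Notch3 and Dll1 were 2.01-fold, 1.98-fold, 1.97-fold and 1.64-fold higher at E15 without a gene-level entry.

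Both guidance receptors were higher at E15. Plxnd1, the endothelial receptor for semaphorins, had a value of 0.92 at E15 and -1.03 in the adult. Robo4, the roundabout receptor of endothelium, had 0.38 at E15 and -0.72 in the adult, a difference of 2.14-fold, but had no gene-level entry. The wider list of semaphorins, plexins, Slits and netrins held 12 clusters, of which 11 had the higher value at E15. Gene-level entries made up 7 of the 12, with 6 up-regulated at E15, against 45.6% and 51.2% over all clusters. Of all clusters without such an entry 56.5% were higher at E15. Robo1 (4.02-fold), Sema3a (3.71-fold, in a cluster shared with a predicted gene) and the netrin receptor Unc5b (3.65-fold) were up-regulated at E15. The netrin Ntn4 was the exception, 3.57-fold higher in the adult.

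Among G-protein coupled receptors, 3 of the vasoactive and chemokine receptors were up-regulated at E15 and 1 peptide receptor in the adult. Cxcr4, the receptor for the chemokine that draws progenitor cells, had a value of 1.12 at E15 and -0.87 in the adult. Ednra, the endothelin receptor of vascular smooth muscle and neural crest, was 3.43-fold higher at E15, from -0.84 in the adult to 0.94. Agtr1a, the angiotensin receptor that raises vascular tone, was 2.64-fold higher at E15, from -0.71 to 0.69. Ednra and Agtr1a became -0.92 and -0.55 on the log2 scale, both under 2-fold, when the table was centred on its median. Crhr2, a receptor for urocortins, was instead higher in the adult, from -1.54 at E15 to 1.63. Bai1, an adhesion receptor named as a brain inhibitor of angiogenesis, differed by 1.17-fold. Of 15 listed receptors and ligands of this kind with an entry, 9 were up-regulated at E15 and 2 in the adult, while over all clusters 45.6% had a gene-level entry and 51.2% of those entries were higher at E15. Crhr2 and Bai1 are not in that list. The apelin receptor Agtrl1 (6.85-fold) and Calcrl, a receptor for adrenomedullin (7.83-fold), had larger differences than any vessel gene of this class other than Crhr2 and carried no vessel term.

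The growth factors, grouped here with 1 neurotrophin receptor, were the class of vessel genes with most members higher in the adult, 4 of 5. Tgfa, a ligand of the epidermal growth factor receptor, had a value of -1.21 at E15 and 1.30 in the adult. Fgf2, a fibroblast growth factor that stimulates endothelium, rose from -0.54 to 0.46, only just 2-fold as deposited and 1.86 on the log2 scale after centring on the table's median, in a cluster shared with Bbs12. Fgf9 was 1.83-fold higher in the adult, below the 2-fold limit. Hbegf, another ligand of the epidermal growth factor receptor, was the exception, at 1.36-fold higher at E15. A further list of growth factors and their receptors, which does not hold Tgfa or Ntrk2, was split. Of its 12 clusters 7 had a gene-level entry, against 45.6% of all clusters, with 4 up-regulated at E15, against 51.2% of all entries, and 3 in the adult. The heparin-binding factors Ptn (4.60-fold) and Mdk (3.13-fold), the matrix-bound Cyr61 (3.54-fold) and the platelet-derived growth factor receptor Pdgfrb (2.75-fold) were up-regulated at E15. Egfr, the receptor of Tgfa and Hbegf, was up-regulated 2.44-fold in the adult. Ntrk2, the receptor for brain-derived neurotrophic factor, was 2.09-fold higher in the adult, from -0.47 to 0.59. Markers of neurons also had higher values in the adult for 4 of the 5 found, among them Syt1 at 3.92-fold, while Dcx, a marker of young neurons, was 4.91-fold higher at E15. Syt1 and Dcx were the only 2 of the 5 with a gene-level entry, so these entries were split 1 to 1. Of all clusters without such an entry 56.5% were higher at E15. The part of neurons in the Ntrk2 difference was not tested.

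Of 13 transcription factors and other regulators of genes 11 had the higher value at E15, and 3 had a gene-level entry, each up-regulated there. Of all clusters 45.6% had such an entry, 51.2% of them higher at E15. Foxm1, a factor of dividing cells, was 3.72-fold higher at E15, in a cluster shared with a Riken clone. Chd7, a chromatin remodeller needed by the neural crest, was 2.83-fold higher, and Dicer1, the enzyme that cuts microRNA precursors, 2.24-fold. Chd7 and Dicer1 became -0.64 and -0.31 on the log2 scale, both under 2-fold, after centring on the table's median. The forkhead factors Foxc2 (2.31-fold) and Foxc1 (1.95-fold), both needed for vessels and mesenchyme, were higher at E15 but had no gene-level entry. The splicing index of Foxc2 rested on 2 probe sets.

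The endothelial factor Sox17 was 1.56-fold higher at E15 and the homeobox factor Pknox1 1.63-fold. Tbx3, Hhex, the venous factor Nr2f2 and Gata2 differed by 1.34-fold, 1.30-fold, 1.24-fold and 1.10-fold, with the higher value at E15, and the sign of Gata2 turned when the table was centred on its median. The oxygen-sensitive factor Hif1a and the factor Mef2c were 1.16-fold and 1.29-fold higher in the adult. All 12 markers of dividing cells had a gene-level entry, and all 12 were higher at E15, with log2 differences from -4.65 for Top2a to -1.48 for Birc5. Over all clusters 45.6% had a gene-level entry, 51.2% of them higher at E15. The part of dividing cells in the Foxm1 difference was not tested. Outside the vessel terms, the endothelial factors Ets1 and Fli1 were 3.44-fold and 3.31-fold higher at E15.

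**Figure D2:**
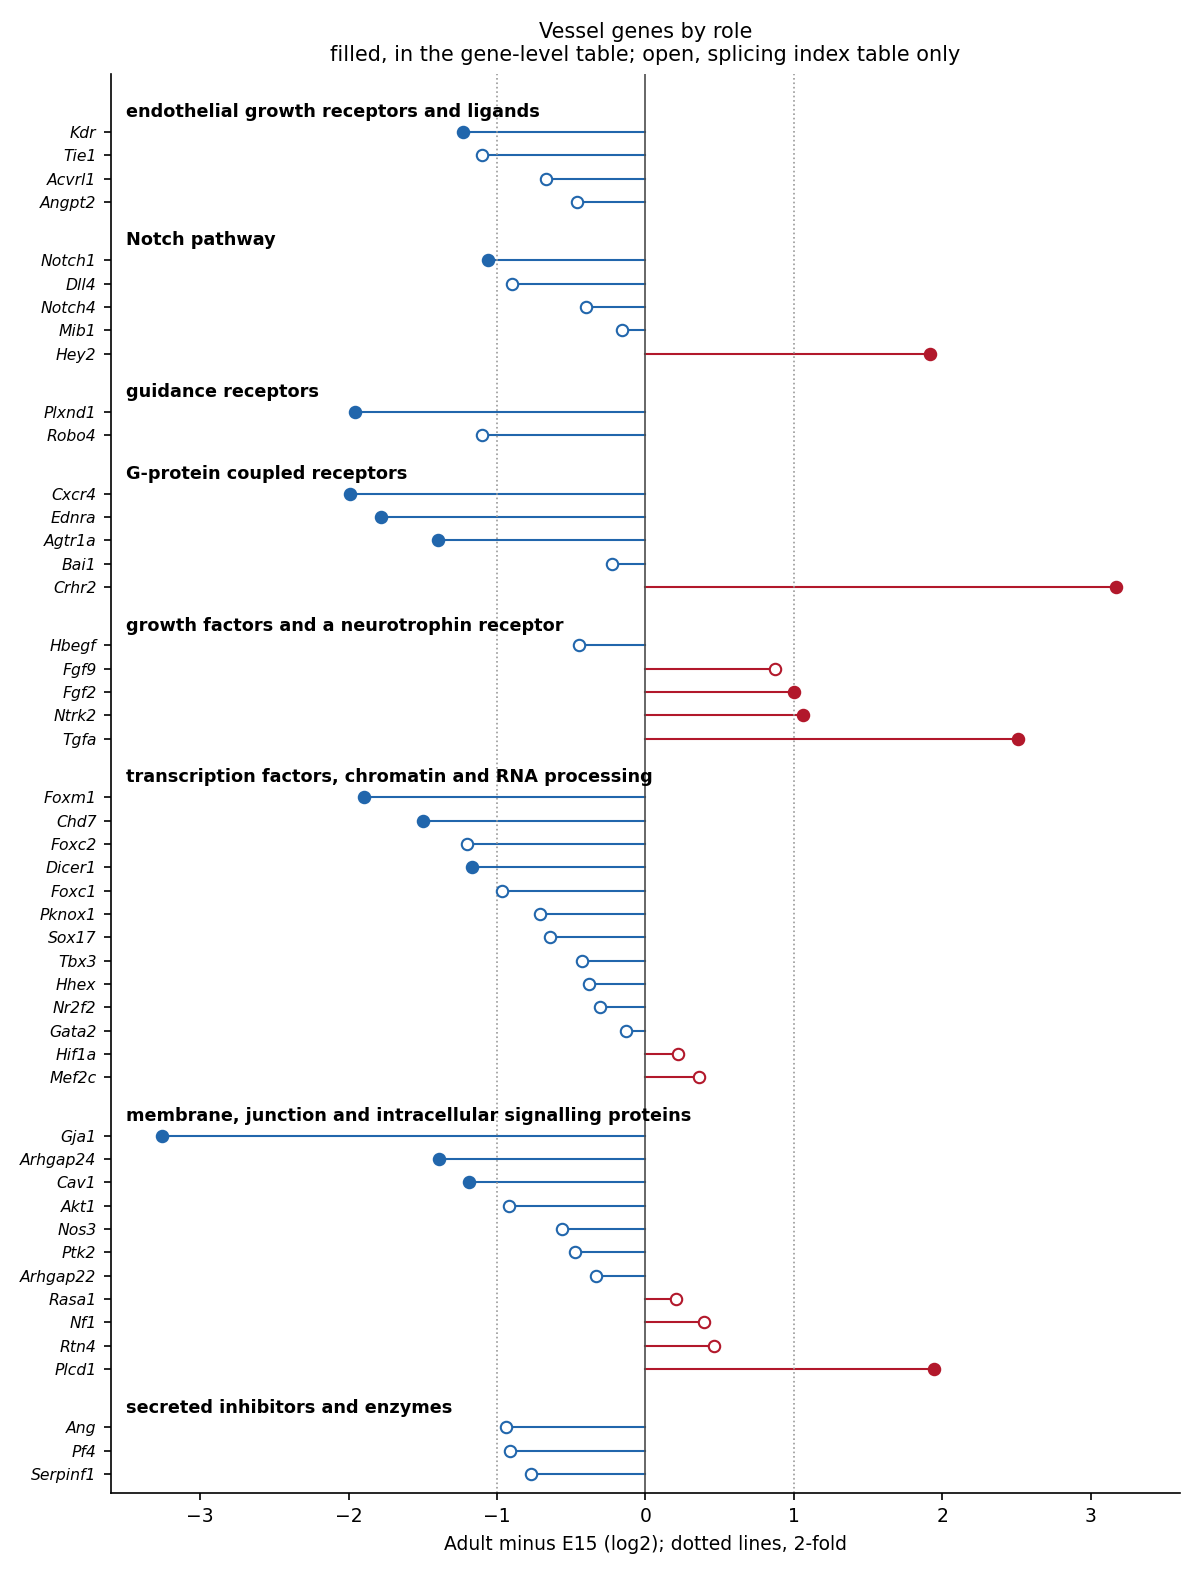
Adult minus E15 difference (log2) of 48 of the 49 vessel genes, grouped by role, with lines to the left for genes higher at E15 and to the right for genes higher in the adult; filled points are in the gene-level table, open points only in the splicing index table, and dotted lines mark 2-fold. Growth factors are the only group of those drawn with most genes to the right.

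Proteins of membranes, junctions and intracellular signalling included the largest E15 difference of all 49. Gja1, the connexin of many embryonic and vascular cells, had a value of 1.65 at E15 and -1.60 in the adult. Cav1, the coat protein of caveolae, which are abundant in endothelium, was 2.28-fold higher at E15, and became -0.33 on the log2 scale when its table was centred on the median. Arhgap24, a GTPase-activating protein, was 2.63-fold higher at E15, and became -0.54 on the log2 scale, under 2-fold, with the same centring. Its relative Arhgap22 differed by 1.26-fold. Plcd1, a phospholipase C, was the 1 gene of this class up-regulated in the adult, from -0.98 at E15 to 0.97.

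The remaining signalling genes differed less than 2-fold. The kinase Akt1 was 1.89-fold higher at E15, the endothelial nitric oxide synthase Nos3 1.48-fold and the focal adhesion kinase Ptk2 1.39-fold, with Akt1 and Ptk2 in clusters shared with another gene. The Ras inhibitors Rasa1 and Nf1 and the membrane protein Rtn4 were 1.15-fold, 1.31-fold and 1.38-fold higher in the adult.

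None of the 4 secreted inhibitors and enzymes was in the gene-level table, which held 45.6% of all clusters. The ribonuclease Ang, in a cluster shared with Rnase4, was 1.92-fold higher at E15, the platelet chemokine Pf4 1.88-fold and Serpinf1, an inhibitor of vessel growth also known as pigment epithelium-derived factor, 1.71-fold. Across all classes 8 of the 49 genes were annotated as negative regulators of angiogenesis: Tie1, Pf4, Serpinf1, Angpt2, Hhex, Bai1, Nf1 and Crhr2. Of these 6 had the higher value at E15 and 2 in the adult, with a median difference of -0.42. Crhr2, higher in the adult, was the 1 in the gene-level table. Over all clusters 51.2% of gene-level entries and 56.5% of the remainder were higher at E15. Of the 6, only Tie1 reached 2-fold, and it became -0.94 on the log2 scale, under 2-fold, when its table was centred on the median. No lean of the annotated inhibitors is read from these counts.

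The vessel genes also shared other annotations. The genes were chosen by annotation, so a higher share of other terms can follow from the choice alone and is no separate result. Receptor activity was annotated for 15 of the 49 (30.6%), against 8.70% of all clusters, and 13 of the 15 had the higher value at E15. Transcription factor activity was annotated for 13 (26.5%), against 4.68%, and 10 of the 13 were higher at E15. A heart term was found for 13 (26.5%), against 1.64% of all clusters. All 7 genes annotated to embryonic development in utero (14.3%, against 0.632%) had the higher value at E15. Of these genes, 8 of the 15 with receptor activity, 3 of the 13 with transcription factor activity and 3 of the 7 had a gene-level entry. Over all clusters 45.6% had such an entry, and 51.2% of these and 56.5% of the remainder were higher at E15. These annotations overlap with one another and were not tested.

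Splicing was scored for 45 of the 49 genes. The deposited splicing index is a signed score for how far the probe sets of a cluster departed from the gene as a whole between the ages. The column name sets adult against E15, but the scale and the meaning of the sign are not stated. The study's supplement gives a cutoff on the index, and no index in the table was smaller in size than 0.501. The median size of the index was 0.911 for the vessel genes and 0.902 for all 3369 clusters of the table. The median number of probe sets was 12 for the vessel genes, from 2 to 63, and 13 for all.

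The largest indices belonged to Crhr2 (-3.23, from 14 probe sets), Rtn4 (2.55, from 17), Fgf2 (2.17, from 5), Cxcr4 (1.81, from 4) and Tgfa (-1.79, from 8). Crhr2, Fgf2, Cxcr4 and Tgfa also differed at least 2-fold between the ages. Rtn4, whose gene makes several Nogo isoforms, stood apart from these: its index was the next largest after that of Crhr2, and its difference between ages was 1.38-fold. Bai1 and Mef2c had the same pattern on a smaller scale, with indices of -1.49 and 1.49 and differences of 1.17-fold and 1.29-fold. The columns used here do not say which exons were behind an index.

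The index tended to have the sign opposite to the difference where the difference was large, in the vessel genes as in the whole table. An opposite sign was found for 23 of the 45 vessel genes (51.1%), against 62.5% of all clusters of the table. Among those that differed at least 2-fold it was 13 of 17 (76.5%), against 77.5% of all such clusters. Among those under 2-fold it was 10 of 28 (35.7%), against 53.3%. All 9 gene-level vessel genes with an index that were higher at E15 had a positive index. Of the 5 higher in the adult, Crhr2, Tgfa and Hey2 had a negative index and Fgf2 and Ntrk2 a positive index. Of the 24 genes higher at E15 in the splicing index table alone, 10 had a positive and 14 a negative index, so the sign did not follow the age there.

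**Figure D3:**
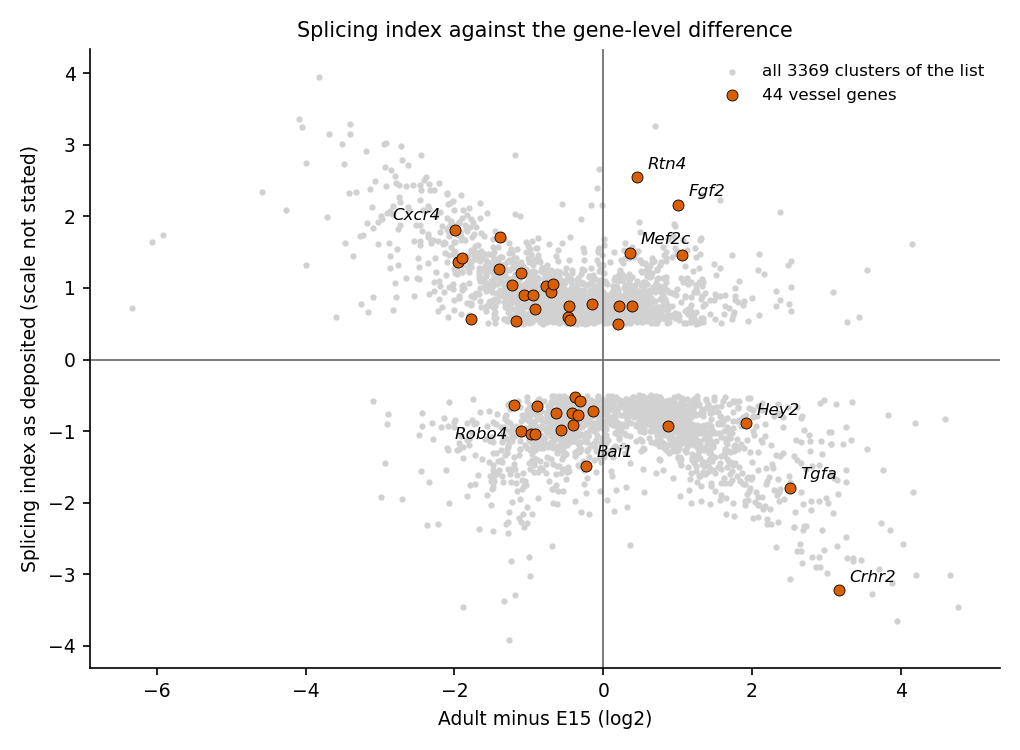
Deposited splicing index against adult minus E15 difference (log2) for 44 of the 45 vessel genes with an index (orange) and all 3369 clusters of the table (grey). The empty band around 0 comes from the minimum size of the index; Crhr2 lies at the lower right, and Rtn4 and Fgf2 stand above the other vessel genes with higher adult values.

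Markers of the cells in the plexus also differed between the ages. Of 20 endothelial markers 10 had an entry, 4 of which are vessel genes above. All 10 were lower in the adult, 4 of them in the gene-level table, with log2 differences from -2.16 for Cd34 to -0.64 for Sox17. Pecam1, an adhesion molecule of endothelium, fell by 1.48. Of the 6 mural cell markers found, 3 had a gene-level entry and 5 were higher at E15, among them Pdgfrb at 2.75-fold and Mcam at 3.50-fold, and the smooth muscle myosin Myh11 was 1.79-fold higher in the adult. All 11 mesenchymal markers found and all 11 erythroid markers found were higher at E15, 6 and 7 of them with a gene-level entry, with Col3a1 at 8.81-fold and the embryonic globin Hbb-y at 46.8-fold. Of 8 clusters of epithelial markers 7 were higher in the adult, among them Kl at 27.4-fold, and Kcne2 was 2.19-fold higher at E15. Macrophage markers were divided, 4 of 6 being higher at E15, among them Mrc1 at 5.14-fold, while Cd74 was 8.96-fold higher in the adult. Over all clusters 45.6% had a gene-level entry, and 51.2% of these and 56.5% of the remainder were higher at E15. In these pools fewer cells of a type and less RNA from each cell cannot be told apart, and the part of cell numbers in the vessel gene differences was not tested. The 4 vessel genes among the endothelial markers, Kdr, Tie1, Robo4 and Sox17, differed by -1.23, -1.10, -1.10 and -0.64.

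**Figure D4:**
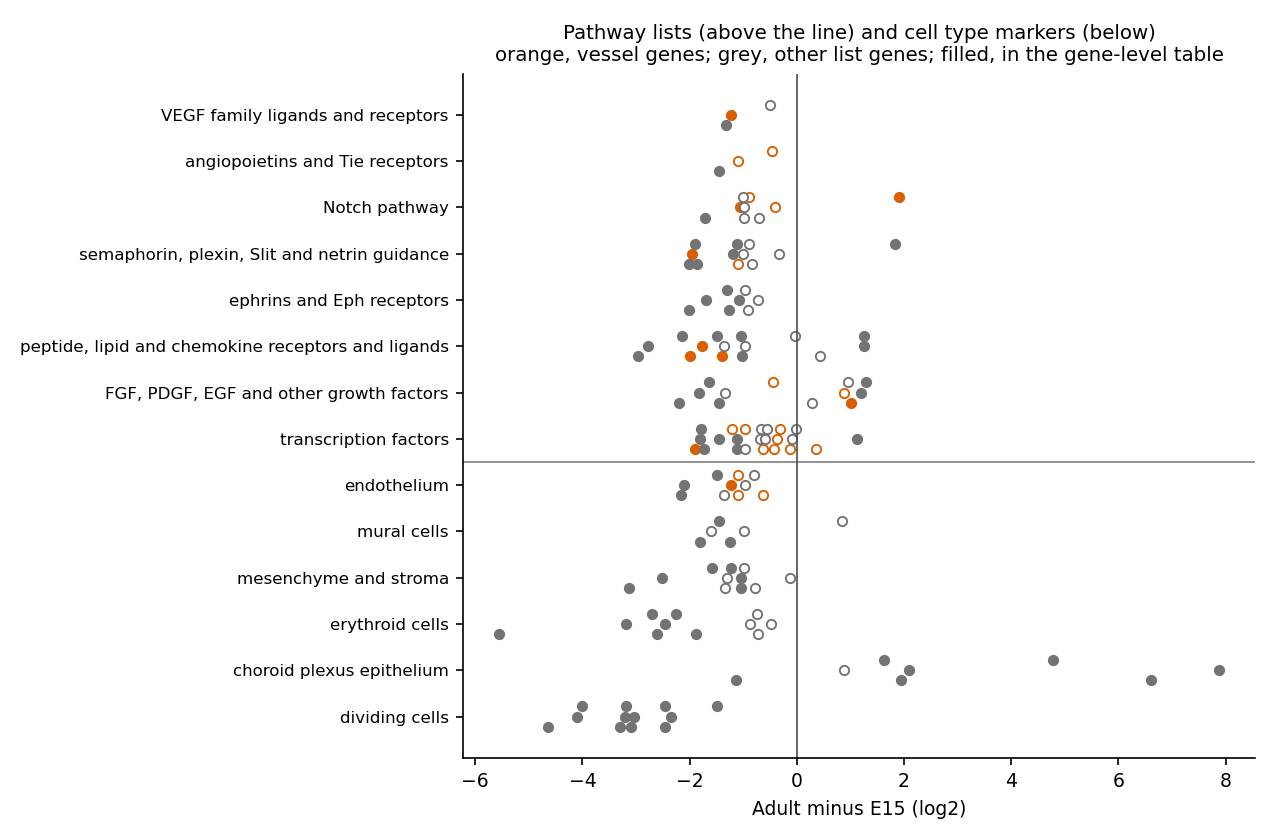
Adult minus E15 difference (log2) of every listed gene with an entry, by pathway list above the line and cell type marker list below it; orange points are vessel genes, grey points other genes of the list, filled points are in the gene-level table and points of a row are offset only to separate them. Endothelial, mesenchymal, erythroid and dividing cell markers lie left of 0 (higher at E15), and most epithelial markers lie to the right.

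The 26 vessel genes that were left out for their adhesion, cell cycle or matrix annotation showed a like split. Of these 16 had a gene-level entry, with 10 up-regulated at E15 and 6 in the adult, and their median difference was -1.21, the same to 2 decimals as that of the 18 kept. Over all clusters 45.6% had such an entry, 51.2% of them higher at E15, with the median of -1.01 given above. The endothelial cadherin Cdh5 was 4.30-fold, the vascular laminin Lama4 6.69-fold and Anxa2, a co-receptor for plasminogen, 7.09-fold higher at E15. Tgfb2, a transforming growth factor, was 18.4-fold higher in the adult, a larger difference than that of any of the 49. Fgf1, like Fgf2, was higher in the adult, at 2.29-fold. The integrins were divided, with Itga4 at 3.19-fold higher at E15, in a cluster shared with Cerkl, and Itga7 at 3.40-fold and Itgav at 2.00-fold higher in the adult.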

How the data were processed

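The values were taken from 2 tables of transcript clusters. For the gene-level log2 values the authors used RMA in Affymetrix Power Tools, took each chip's median as reference, filtered on expression and kept clusters past an unpaired test with Benjamini-Hochberg correction and a fold change of 2. The splicing index is a score that the authors deposited after PLIER normalisation of exon signals and a splicing analysis of variance. The number of probe sets beside it is deposited as a plain number. Genome build and software versions are not given in the sources used here. Both tables give 1 log2 value for each age, identical for shared clusters, and 0 columns of single arrays. Columns with the authors' fold change and its direction were not used, and nor was the table of clusters common to both. The planned moderated model could therefore not be fitted.

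Tables were joined by cluster and the adult minus E15 difference was computed with Python 3.11.15, pandas 2.3.3 and numpy 2.4.6. Folds are 2 raised to the absolute difference. Counting was tested on simulated data. The genes named were all 18 in the gene-level table, others at 1.5-fold or more or in a pathway list, the 5 with the largest index, the 3 nearest 2-fold on each side, listed genes left out by annotation and marker genes; a few further genes were named after their values were seen. The values of 1 of the 49 genes are not reported here. Members, lists and roles were chosen with earlier results of these data known. All 49 symbols matched a RefSeq gene of GRCm38.p6, and for the 33 with a promoter window the one nearest the annotated start was used. Alternatives changed the fold limit, centring, annotation evidence, exclusion words and shared clusters. The small number of arrays limits precision.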

Additional observations from a re-analysis of the deposited data

How the results depend on the processing

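The count of 12 gene-level vessel genes higher at E15 became 5 of 9 at a limit of 3-fold, 22 of 34 with no exclusion and 4 of 8 with angiogenesis alone. Re-centring cannot turn the sign of these genes, since its shift of 0.85 is smaller than the 2-fold the table requires, and 4 of the 12 were still at least 2-fold apart, a setting chosen after the data were seen. The median of -1.21 became -0.029 with angiogenesis alone and -0.36 after re-centring. In the other settings tried (without electronic annotation, 1 gene symbol, 1 cluster per symbol) these 2 values moved by less than 1.5 times. The 3 genes of the splicing index table alone that reached 2-fold became 13 at 1.5-fold and 2 after re-centring, with Tie1 and Robo4 lost and Fgf9, higher in the adult, gained. The median of the 31 stayed negative in each of the 3 settings tried. The 23 indices of opposite sign became 11 of 18 at an index of at least 1 and 13 of 17 at 2-fold or more. Re-centring moved 18 of the 49 differences by over 1.5-fold, among them Gja1 to -2.40 and Crhr2 to 4.02. Of these 18, Kdr, Notch1, Cav1, Dicer1, Ednra, Chd7, Agtr1a and Arhgap24 fell below 2-fold. Re-centring also turned the sign of 2 others, Mib1 to 0.0089 and Gata2 to 0.031. The cause lies in its construction, since it added 0.85 to every gene-level difference and 0.16 to the rest.

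No paired analysis was possible because each age has 1 merged value and no column for a single array in the processed tables used here. Leaving out each replicate and the limma model were not run for the same reason, and the alternative based on the authors' fold change was not run because it uses their own comparison. Signal over background cannot be read from centred values.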

Other observations

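Further pathways with a role in vessels were listed and hold no or few of the vessel genes above. All 8 ephrins and Eph receptors with an entry, of 9 listed, had the higher value at E15, and 5 of them were in the gene-level table. Over all clusters 45.6% were in that table, of which 51.2% were higher at E15, and 56.5% of the remainder were. The arterial ligand Efnb2 was 2.46-fold and its venous receptor Ephb4 2.12-fold higher at E15, and Ephb2 was 4.04-fold higher. Of the 7 Wnt and Hedgehog genes found 6 were higher at E15. These included the secreted enhancer Rspo3 at 9.42-fold, Wnt5a at 4.07-fold and Gpr124, a receptor needed for brain vessels, at 2.80-fold. Fzd4, a receptor needed for retinal vessels, was 3.85-fold higher in the adult. In further lists, gene-level entries higher at E15 and in the adult numbered 2 and 1 for proteases, matrix regulators and coagulation. They numbered 10 and 7 for cytoskeletal and intracellular signalling and 7 and 1 for transcription factors. For endothelial junctions they were 9 and 1, for transforming growth factor and bone morphogenetic protein signalling 3 and 1, and for hypoxia 1 and 0.

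Of 14 genes with an entry that were listed under inhibitors of angiogenesis, 10 had the higher value at E15, and the median difference was -0.98. Vash2 and Stab1 are not established inhibitors, so the counts describe the list and not inhibitors alone. Of the 14, 7 were up-regulated at E15 and 3 in the adult, beside the shares of 45.6% and 51.2% over all clusters given above. Thbs1 was 2.17-fold higher at E15, while its relative Thbs2 was 2.33-fold higher in the adult. Vash1 and Vash2 were 2.07-fold and 2.32-fold higher at E15, and the protease inhibitor Timp2 was 2.07-fold higher in the adult. These lists were chosen with earlier results of these data known, and no test was made.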
